A study of Homo sapiens with 6 samples.

Results

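The genes described here are the abundant clone-named genes of the table: those whose name is a genomic clone with a running number, such as RP11-572M11.4, and whose mean raw count over all 6 libraries was 500 or more. They were chosen by the name pattern and by the mean count, so their abundance is a description and is not tested. Of 53719 genes in the table, 14098 had such a name and 222 of these reached the mean count. The whole table was obtained from the human embryonic stem cell line H9, cultured in RSeT, a commercial medium for a naive-type state. The knockdown group (3 libraries, a to c; titled Sense3) received a gapmer against ALR, the RNA of the alpha satellite repeats of human centromeres. The control group (3 libraries, a to c) received a control gapmer. In both groups the transfected cells were harvested after 48 h and their total RNA was sequenced. Gapmers are antisense oligonucleotides whose DNA centre recruits RNase H to the paired RNA, which is then cut. H9 is 1 line, and the labels do not say whether the libraries of a group came from separate cultures, so p-values measure only the spread between these libraries.

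Names of this form were given by manual annotators to transcripts that had no approved symbol, after the cloned piece of genomic DNA on which they lay. Long noncoding RNAs, antisense transcripts, processed copies of coding genes and transcripts not yet assigned to a known gene all carried such names. Many long noncoding RNAs stay in the nucleus, and in human pluripotent cells some of them start at the promoters of endogenous retroviruses. The table gave names only. None of the 222 names, nor RP3-510D11.1 described below, was found in the gene name table, in the RefSeq genes of GRCh38.p14 or in GENCODE release 29 (0 of 223 searched). Position, strand, biotype and function are therefore not given for any of them, and whether they are noncoding could not be checked. They are called clone-named genes throughout.

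Values in groups of 3 are given in the order of the letters a, b and c. Total counts ranged from 25087629 to 36576752 per library. Stem cell markers were present in all 6 libraries, with LIN28A at 1528 to 1890 CPM (reads of a gene per library size, after TMM scaling) and NANOG at 175 to 204. POU5F1 was at 120, 152 and 127 CPM in the knockdown libraries and at 114, 87.8 and 97.4 in the controls (log2 fold change 0.42 ± 0.10, SE; edgeR adjusted p = 0.0948). Of 5 markers of the naive state, TFCP2L1 was at 23.9 to 32.2 CPM, DPPA3 at 18.1 to 21.9, KLF4 at 16.5 to 19.1, DPPA5 at 0.809 to 1.23 and KLF17 at 0.0275 to 0.353. The markers of endoderm (SOX17, FOXA2 and GATA6) lay at or below 1.54 CPM in every library. Of the mesoderm markers, MIXL1 was at 9.94 to 14.1 CPM and T at or below 0.317. Those of ectoderm (PAX6 and SOX1) lay at or below 2.64 CPM, and those of trophectoderm (GATA3, CDX2 and TFAP2A) at or below 0.709. The fibroblast gene COL1A2 was at 60.7 to 81.0 CPM and COL1A1 at 18.8 to 24.8. SOX2, RMRP, RN7SL1 and THY1 were listed at 0 in all libraries. SOX2 is a core factor of these cells, and RMRP and RN7SL1 are made by nearly every cell, so a listed 0 does not show that a gene is silent. No gene in the table was named for alpha satellite, so the target of the gapmer has no value here. Knockdown library a stood apart in breadth, with a count in 6319 clone-named genes against 4834 to 5147 in the others. The same held over the whole table, with a count in 29678 genes against 25898 to 26788.

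The abundant clone-named genes were few but held most of the reads of their kind. They made up 1.57% of the clone-named genes and took 72.6% of the counts in them, which was 1.75% of all counts. The 10 highest held 30.6% of the counts of the 222. Mean counts ran from 504 to 27101 with a median of 1128.5: 93 genes lay under 1000, 105 between 1000 and 5000, and 24 at or above 5000. By clone library, 191 of the names began with RP11, 7 each with RP1, RP4 and RP5, 5 with RP13, 3 with RP3 and 2 with RP6. The 222 names came from 206 clones, and 13 clones held 2 or more of the genes (29 genes together). Just inside the minimum, RP11-599J14.2 had a mean count of 504 and RP11-584P21.2 one of 505.7. Just outside it, RP11-129M6.1 had 499 and RP11-847H18.2 496.8.

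Some neighbours by name had nearly the same counts. The following 2 pairs were picked after their values had been seen. RP11-152F13.2 and RP11-152F13.4, from 1 clone, had a count ratio of 0.9985 to 1.049 over the 6 libraries. For RP11-706O15.3 and RP11-706O15.5 the ratio was 0.9654 to 1.033. Reads could be shared between such genes if their sequences are alike or overlap. How multiply aligned and overlapping reads were counted is not given in the sources used here, so these genes may not be independent of each other.

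As a group, the clone-named genes held a slightly lower share of the reads after the ALR gapmer, and the low values were mainly those of knockdown libraries a and b. Of all counts, they held 1.60%, 1.58% and 1.79% in the knockdown libraries (95% Wilson intervals 1.599 to 1.608, 1.572 to 1.581 and 1.790 to 1.800). They held 1.84%, 1.82% and 1.86% in the controls (1.840 to 1.849, 1.819 to 1.829 and 1.853 to 1.862). Each knockdown library held less than any control, but c was close to them. In bulk RNA, a change in the number of cells that make an RNA cannot be told apart from a change in RNA per cell. The means were 1.66 ± 0.119% and 1.84 ± 0.0169% (SD, n = 3 each), a difference of -0.184 percentage points. An exact permutation test gave p = 0.10 (two-sided), the smallest that 3 libraries against 3 allow. The genes were chosen with earlier results of these data known, so this p cannot decide whether their share fell. Part of the difference came from RP11-321C1.1 (mean 709 CPM in knockdown against 1056 in control libraries) and RP11-572M11.4 (565 against 857). The values of these genes ran nearly parallel, and the size of the difference without them was not calculated. With their counts taken out, knockdown c would hold a larger share than controls a and b. The separation of the groups, and with it the permutation p, thus rests on these genes. The Wilson intervals describe counting error alone. Because the reads carry no molecular identifiers, copies of a molecule count as separate reads, and the intervals may be too narrow even for that.

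The same difference between the knockdown libraries ran through the single genes. For each gene, the deviation of a library from the gene's mean on the log2 scale was taken. The median deviation over the 222 genes was -0.12 in knockdown a, -0.12 in b and 0.06 in c. In the controls it was 0.05, 0.05 and 0.09 in a, b and c. Over all 8995 genes with a mean count of 500 or more, the medians lay between -0.03 and 0.04 in every library. Knockdown c was the highest of its group for 149 of the 222 genes (67.1%), against 35.5% of the 8995. Knockdown a and b, but not c, lay below every control for 78 of the 222 (35.1%), against 12.7% of the 8995. All 3 knockdown libraries lay below every control for 32 (14.4%, against 13.8%).

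**Figure D1:**
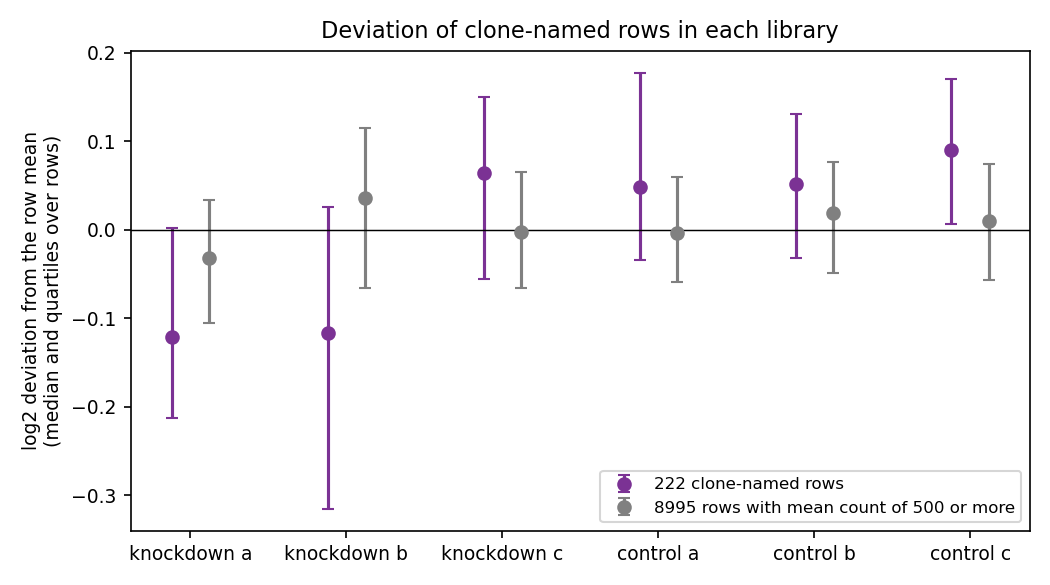
Log2 deviation of a library from each gene's mean over 6 libraries (y axis), for 222 clone-named genes (purple) and the 8995 genes with a mean count of 500 or more (grey). Points are medians and bars run from the lower to the upper quartile over genes. Knockdown a and b lie at -0.12 for the clone-named genes, and knockdown c (0.06) lies among the controls (0.05 to 0.09).

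In the fit over the 19721 genes with enough counts (edgeR's quasi-likelihood test), all 222 clone-named genes were tested and their median log2 fold change was -0.11. The quartiles were -0.26 and 0.02, and the range was -0.65 to 0.37. Of the 222, 159 had a value below 0 (71.6%). Over all genes tested the median was 0.02 and 45.6% were below 0, and over the 8995 abundant genes it was -0.01 and 52.1%. Other sets of genes with a mean count of 500 or more were picked by the form of the name alone, and their biotypes were not checked. The median was -0.10 over 23 LINC genes, -0.08 over 28 antisense genes and -0.11 over 94 genes named for clones of other libraries. For the 968 clone-named genes with a mean count between 50 and 500, it was -0.002. Without knockdown c the median of the 222 genes was -0.20.

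At a Benjamini-Hochberg adjusted p of 0.05 over all genes tested, 9 of the 222 fell (4.05%) and 0 rose. Of all genes tested, 0.786% passed in either direction, 0.649% lower and 0.137% higher. Among the 8995 abundant genes, 1.36% passed. The 9 include RP11-572M11.4 and RP11-1134I14.2, which were singled out with results of these data known. They also include RP11-321C1.1, whose values ran nearly parallel to those of RP11-572M11.4, so the calls may not be independent. The share of 4.05% is therefore a description and not a test of the group. Of the 94 genes named for clones of other libraries, 6 passed (6.38%), all of them lower. Of the 23 LINC genes and the 28 antisense genes, 0 passed. The groups did not overlap for 40 of the 222 (18.0%), which was near the 18.9% of all genes tested and below the 23.6% of the 8995 abundant genes. At an unadjusted p under 0.05, 68 of the 222 were lower and 8 were higher (34.2% in all, against 14.3% of all genes tested and 20.8% of the 8995 abundant genes). Of the 94 genes of other clone libraries, 27 were lower and 0 higher (28.7%). The call count moved with single libraries, for the 222 genes and for all genes tested alike. Without knockdown c, 76 of the 222 passed (34.2%) and 6.40% of all genes. Without knockdown a, 7 passed (3.15%, against 0.507% of all genes), and without knockdown b 5 did (2.25%, against 0.301%). Without control a, 4 passed (1.80%, against 0.127%), and without control b or control c 5 each (2.25%, against 0.208% in both fits). DESeq2's Wald test called 16 (7.21%, against 1.55%), and the fit with no low-count filter called 59 (26.6%, against 3.29%). In both, the share of all genes is over 32300 genes with any count, against 19721 in the main fit. These include genes with too few counts for the main fit, so the shares are not directly comparable with 0.786%.

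**Figure D2:**
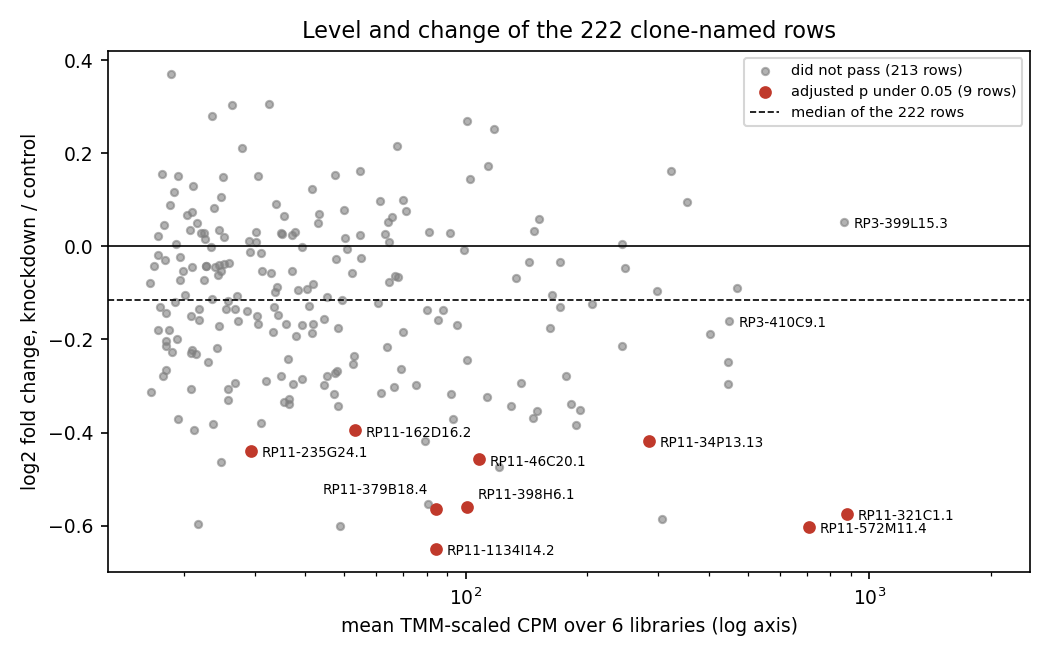
Mean level over 6 libraries (x axis, TMM-scaled CPM, log axis) against the log2 fold change of knockdown over control (y axis) for the 222 clone-named genes. Red points are the 9 genes with an adjusted p under 0.05, which lie between -0.65 and -0.40, and the dashed line is the median of -0.11.

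Of the 9 genes past the threshold, 5 had log2 fold changes between -0.65 and -0.56. Of these, RP11-572M11.4 and RP11-1134I14.2, like RP3-510D11.1, were singled out in advance with results of these data known, so their values are a description and are given without a p. RP11-572M11.4 was at 563, 537 and 593 CPM in the knockdown libraries and at 869, 860 and 844 in the controls. The SDs were 28.0 among the knockdown and 12.7 among the control libraries (n = 3 each). The log2 fold change was -0.60 ± 0.07 (SE). RP11-1134I14.2 was at 62.7, 62.4 and 71.8 CPM in the knockdown libraries and at 102, 109 and 98.5 in the controls, a log2 fold change of -0.65 ± 0.07. It had the most negative value of the 222.

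RP3-510D11.1 did not reach the mean count that defines the group. Its mean count was 481.2, and it stands 228th among the clone-named genes by mean count, so it is not counted among the 222. Its raw counts were 293, 362 and 296 in the knockdown libraries and 512, 661 and 763 in the controls. On the scaled level these were 10.3, 10.8 and 11.7 CPM against 18.0, 21.3 and 21.0. All knockdown libraries lay below all controls, and the log2 fold change was -0.88 ± 0.10 (SE).

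The most abundant clone-named gene, RP11-321C1.1, also fell. It was at 700.1, 679 and 749 CPM in the knockdown libraries and at 1050, 1067 and 1051 in the controls (log2 fold change -0.57 ± 0.07, SE; edgeR adjusted p = 0.00195). The control libraries differed among themselves by less than the knockdown libraries did. RP11-398H6.1 was at 82.0, 75.8 and 87.0 CPM against 122, 118 and 121 (log2 fold change -0.56 ± 0.07, SE; edgeR adjusted p = 0.00214). RP11-379B18.4 was at 63.7, 67.2 and 73.2 against 106, 102 and 94.3 (log2 fold change -0.56 ± 0.07, SE; edgeR adjusted p = 0.00344). RP11-321C1.1 and RP11-398H6.1 passed in all 14 alternative fits. RP11-379B18.4 passed in 13, and its adjusted p was 0.0636 without control a.

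**Figure D3:**
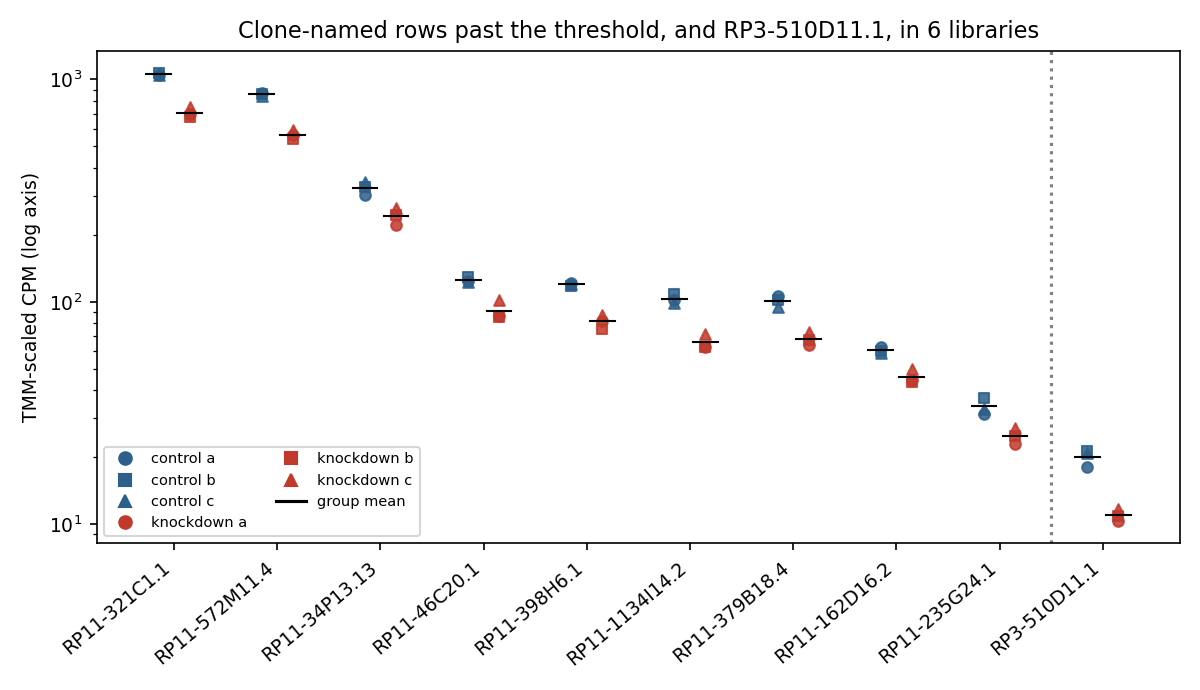
TMM-scaled CPM (y axis, log axis) in each library for the 9 clone-named genes past the threshold and, right of the dotted line, RP3-510D11.1. Blue marks are control and red marks knockdown libraries, with the shape giving the letter and the bar the group mean. In all 10 genes the 3 knockdown libraries lie below the 3 controls, and knockdown c is the highest of its group.

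The genes whose 6 values ran most nearly parallel to these were then listed, a step chosen after their values had been seen. Likeness was the root mean square difference of log2 CPM after each gene's mean was removed, over 6 libraries, among the 8995 abundant genes. The gene nearest to RP11-572M11.4 was CD48, a surface receptor of blood cells, at 0.0120. The ratio of their counts was 5.317 to 5.448 in the knockdown and 5.342 to 5.382 in the control libraries. The gene nearest to RP11-321C1.1 was DEFB107B, a beta-defensin gene, at 0.0120 with a count ratio of 1.202 to 1.229. RP11-321C1.1 and RP11-572M11.4 kept a ratio of 1.208 to 1.263 to each other. DEFB107B and SGCD, which encodes a sarcoglycan of muscle, were the nearest to RP11-398H6.1. SGCD was at 1379, 1345 and 1524 CPM in knockdown and 2053, 2011 and 2036 in control libraries. CD48 was at 103, 101 and 112 against 163, 161 and 157, and DEFB107B at 578, 552 and 623 against 869, 872 and 873. With 8995 genes to choose from, the median distance of the 222 to their nearest gene was 0.0255. The 0.0120 of RP11-572M11.4 and of RP11-321C1.1 lay below this median. RP11-1134I14.2 (0.0499) and RP11-379B18.4 (0.0514) lay above it. Whether these genes share reads was not tested.

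The other 4 genes that passed had log2 fold changes between -0.46 and -0.40. RP11-34P13.13 was at 221, 245 and 264 CPM in the knockdown libraries and at 301, 329 and 345 in the controls (log2 fold change -0.42 ± 0.08, SE; edgeR adjusted p = 0.0355). RP11-46C20.1 was at 86.3, 85.6 and 101 against 124, 129 and 122 (log2 fold change -0.46 ± 0.08, SE; edgeR adjusted p = 0.0167). RP11-162D16.2 was at 44.6, 43.8 and 49.7 against 62.5, 60.3 and 58.7 (log2 fold change -0.40 ± 0.07, SE; edgeR adjusted p = 0.0246). RP11-235G24.1 was at 23.0, 24.9 and 27.0 against 31.4, 37.04 and 33.0 (log2 fold change -0.44 ± 0.09, SE; edgeR adjusted p = 0.0412). Each stayed lower in every fit but lost the call when any library other than knockdown c was left out. Over those 5 fits the log2 fold change ran from -0.46 to -0.35 for RP11-34P13.13, from -0.47 to -0.42 for RP11-46C20.1, from -0.42 to -0.36 for RP11-162D16.2 and from -0.48 to -0.37 for RP11-235G24.1. The highest edgeR adjusted p was 0.250 for RP11-34P13.13, 0.130 for RP11-46C20.1, 0.157 for RP11-162D16.2 and 0.228 for RP11-235G24.1. RP11-235G24.1 also lost it with library size alone (edgeR adjusted p = 0.0543).

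RP11-304M2.3, picked in the same later step of likeness, ran closest to RP11-34P13.13, with a count ratio of RP11-34P13.13 to it of 1.490 to 1.570. It was at 146, 164 and 177 CPM against 195, 210 and 232 and did not pass (log2 fold change -0.38 ± 0.09; edgeR adjusted p = 0.0695).

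Of the genes that did not pass, 2 had a log2 fold change of -0.60, as large as that of RP11-572M11.4. RP11-624L4.1 was at 20.2, 14.4 and 17.2 CPM in the knockdown libraries and at 29.8, 23.2 and 25.2 in the controls (log2 fold change -0.60 ± 0.12, SE; edgeR adjusted p = 0.0534). RP11-444D3.1 was at 35.7, 30.1 and 50.9 against 68.4, 50.2 and 57.9 (log2 fold change -0.60 ± 0.16, SE; edgeR adjusted p = 0.118). In RP11-444D3.1 the values of knockdown c and control b met. RP11-624L4.1 passed in 6 of 14 alternative fits and RP11-444D3.1 in 3.

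Where knockdown c parted most from a and b, large mean differences did not pass. RP5-964N17.1 was at 212 and 162 CPM in knockdown a and b, at 362 in c, and at 429, 318 and 356 in the controls. Knockdown c thus lay within the control range, at 1.93 times the median of a and b. The log2 fold change was -0.58 ± 0.22 (edgeR adjusted p = 0.258). RP11-123O10.4 had the same shape, with 89.1, 68.0 and 146 CPM against 164, 122 and 134 (-0.47 ± 0.21, edgeR adjusted p = 0.332). RP1-241P17.1 was at 18.8, 14.8 and 28.96 against 33.3, 22.3 and 30.1 (-0.46 ± 0.20, edgeR adjusted p = 0.328). Without knockdown c all 3 passed, with log2 fold changes of -0.99, -0.86 and -0.79. These 3 had the highest ratio of 1 library to the rest of its group among the 222. The spread within groups was also wider for the 222 than for the 8995: the median coefficient of variation was 10.7% in knockdown and 7.10% in control libraries, against 6.49% and 4.76%.

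**Figure D4:**
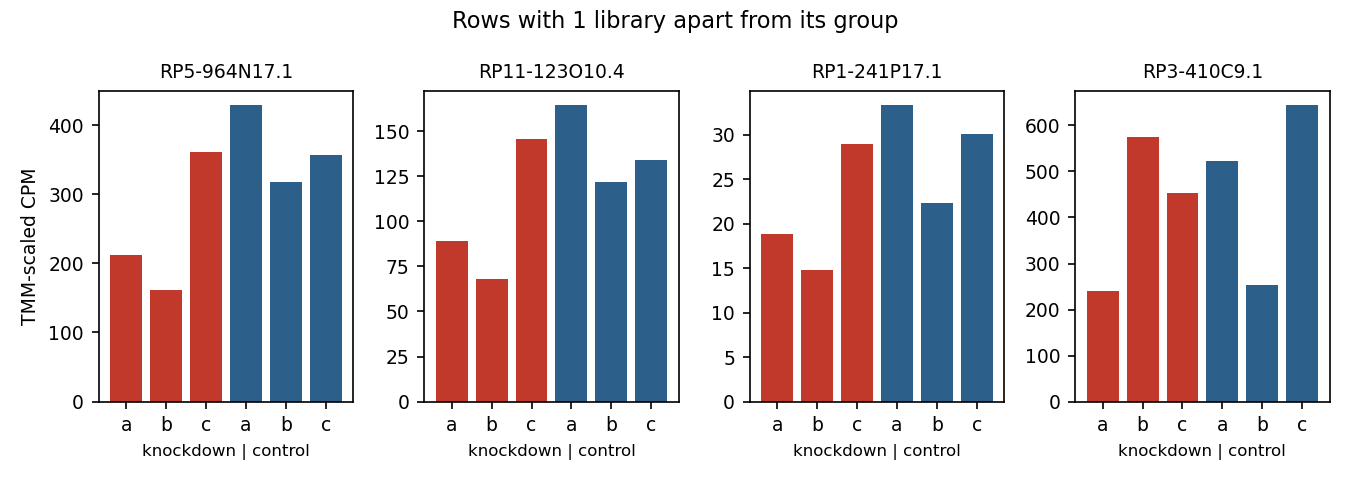
TMM-scaled CPM (y axes from 0, a scale for each gene) of 4 clone-named genes in knockdown (red) and control (blue) libraries a, b and c. In the first 3 genes knockdown c stands near the controls while a and b are lower, and RP3-410C9.1 varies from 241 to 644 CPM with no order by group.

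The other clone-named genes of high level did not pass. RP3-399L15.3, the second most abundant, was at 876, 887 and 876 CPM in the knockdown libraries and at 836, 992 and 715 in the controls (0.05 ± 0.10, edgeR adjusted p = 0.857). Its control libraries spread widely around the knockdown values. RP11-69I8.2 was at 421, 436 and 506 against 477, 502 and 471 (-0.09 ± 0.08, edgeR adjusted p = 0.651). RP5-857K21.4 was at 391, 418 and 416 against 492, 508 and 455, so its groups did not overlap (-0.25 ± 0.07, edgeR adjusted p = 0.125). It passed in 3 of 14 alternative fits.

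RP3-410C9.1 spread widely in both groups. It was at 241, 575 and 453 CPM in the knockdown libraries and at 522, 253 and 644 in the controls, and its log2 fold change was -0.16 ± 0.31 (edgeR adjusted p = 0.861). Low and high libraries were found in both groups. The nearest of the 8995 genes lay at a distance of 0.295, the largest nearest distance among the 222 genes. That gene was SNORD3C, a copy of the U3 small nucleolar RNA that guides processing of the ribosomal RNA precursor. The next were MIR3648 (0.327) and MIR3687 (0.328), 2 microRNA names that lie in the transcribed spacer of the ribosomal RNA unit. MIR3648 was at 1727, 4391 and 2972 CPM in knockdown and 4302, 3369 and 5416 in control libraries, and the count ratio of RP3-410C9.1 to it ran from 0.0750 to 0.153.

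None of the 222 genes rose at the adjusted threshold in edgeR's test with all libraries and the low-count filter, in DESeq2's Wald test or in limma-voom. At an unadjusted p under 0.05, 8 were higher in edgeR's test. In 2 of the alternative fits some passed as higher. Without knockdown c these were RP11-176D17.3 (log2 fold change 0.34, against 0.27 with all libraries) and RP11-887P2.3 (0.30, against 0.25), both picked after their values had been seen. With no low-count filter, 5 passed as higher, these 2 among them. The 4 highest log2 fold changes were those of RP11-478C19.2 (0.37 ± 0.13, edgeR adjusted p = 0.229), RP5-1085F17.4 (0.31 ± 0.11, edgeR adjusted p = 0.255), RP11-252A24.7 (0.30 ± 0.10, edgeR adjusted p = 0.194) and RP11-255A11.21 (0.28 ± 0.18, edgeR adjusted p = 0.516). RP11-252A24.7 was at 28.4, 32.9 and 25.8 CPM in knockdown and 21.3, 24.3 and 25.05 in control libraries, with no overlap. RP11-252A24.2, from the same clone and picked after its values had been seen, was at 39.0, 44.6 and 44.9 against 49.9, 52.3 and 53.0, also without overlap and in the other direction (-0.27 ± 0.07, edgeR adjusted p = 0.120). Neither passed. RP11-478C19.2, RP5-1085F17.4 and RP11-252A24.7 each passed only in the fit with no low-count filter.

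Named noncoding RNAs were read beside them from 2 short lists. Of 10 noncoding RNAs known from stem cells, 6 had an entry in the table and 2 were tested. The entries not tested (ESRG, LINC00678, MIR302B and LINC00545) were listed at 0 in all libraries. As for SOX2 and RMRP above, a listed 0 does not show that they are silent. LINC-ROR, a noncoding RNA linked to pluripotency, was at 13.9, 12.2 and 14.8 CPM in knockdown and 12.5, 9.60 and 11.04 in control libraries (0.30 ± 0.12, edgeR adjusted p = 0.285). The log2 fold change of LINC00458 was 0.02 ± 0.19 (edgeR adjusted p = 0.982). Of 12 structural or host noncoding RNAs, 9 were tested and 0 passed, with a median of -0.01. Of all genes tested, 0.786% passed, so 0 of 9 does not set these RNAs apart. At an unadjusted p under 0.05, 1 of these was higher (RN7SL2, 0.41 ± 0.17) and 1 lower (SNHG1, -0.14 ± 0.06). RN7SK, the RNA that holds the elongation factor P-TEFb inactive, was at 1466, 1561 and 1885 CPM in knockdown and 2117, 1918 and 1300 in control libraries, so its groups overlapped.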

How the data were processed

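The authors deposited raw read counts per gene name, 1 column per library. The submitters' processing notes name Trimmomatic 0.39, STAR 2.7.8a, featureCounts, Subread 2.14.2 and hg38. Annotation, strand setting and the handling of multiply aligned reads are not given in the sources used here. Counts were tested with edgeR 4.0.16 in R 4.3.3: filterByExpr at its defaults (19721 genes kept), TMM scaling, glmQLFit and glmQLFTest with group as the only term, two-sided, Benjamini-Hochberg adjustment over all genes tested. SE is the log2 fold change divided by the square root of F. Scaled levels are CPM with TMM-scaled library sizes. Alternatives were other scalings, DESeq2 1.42.0, limma-voom (limma 3.58.1), other filters, the replicate letter as a block and each library left out. The code was tested on simulated counts. Named were the 3 genes given with the definition, genes past the threshold, the 6 most abundant, the 4 most changed each way, the 3 with 1 library most apart, and 2 on each side of the count minimum. Any gene outside this rule and the lists is marked as picked later. The members and lists were chosen with earlier results of these data known.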

Additional observations from a re-analysis of the deposited data

How the results depend on the processing

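Over all genes tested, 155 passed, against 501 with DESeq2's Wald test, 1064 with no low-count filter and 393 with the replicate block. The matching numbers of clone-named genes were 9, 16, 59 and 23, and each of these fits included all 9. The labels do not say whether the letters pair the libraries. The correlation of deviations between libraries of the same letter was -0.0109, 0.14 and -0.0104 for a, b and c. Libraries of unlike letters were not set beside them, so these values cannot settle whether the letters are paired. The fit with the block is given only as an alternative. When each of the 6 libraries was left out, the number ran from 26 to 1309 over all genes and from 4 to 76 for clone-named genes, with the highest values without knockdown c. The median log2 fold change of the 222 genes ran from -0.20 (without knockdown c) to -0.079 (without knockdown a) and stayed below 0 in every alternative. It was -0.09 with library size alone, -0.07 at a minimum mean count of 200 and -0.14 at 1000. The difference in share of counts ran from -0.252 to -0.143 percentage points when a library was left out. Changes of sign were seen for 3 named genes that did not pass. With a library left out, RP3-410C9.1 ran from -0.47 to 0.12 (above 0 without knockdown a, 0.117, or control c, 0.122). RP3-399L15.3 ran from -0.055 to 0.17 and RP11-599J14.2 from -0.21 to 0.052, each changing sign without control c. Why the fits differ was not tested. All 222 genes had mean counts of at least 500, and counting error was not set against the spread between libraries.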
